A study of Gallus gallus with 5 samples.

Results

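The genes described are COX1, COX2, COX3 and ATP6, 4 protein-coding genes of the mitochondrial genome, chosen by 4 listed Ensembl IDs from the 11476 genes counted. The 4 IDs are ENSGALG00000032142.1 (COX1), ENSGALG00000032079.1 (COX2), ENSGALG00000035334.1 (COX3) and ENSGALG00000041091.1 (ATP6). All 4 were counted in every library. The deposited table pairs no symbol with an ID and the RefSeq gene table consulted for names holds 0 of its IDs, so the names are those of the list and could not be checked against an annotation. Tissue markers could not be checked for the same reason.

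The libraries came from whole lysate of PO/AH (commonly the preoptic area with the anterior hypothalamus, a centre of body temperature control) of Cobb broiler chicks. A mimic of gga-miR-210a-3p had been injected into this tissue on day 3 after hatching, and the tissue was taken 6 h later. There were 5 libraries in this single group, numbered 1, 2, 6, 9 and 10 in their titles, and naive chicks were not analysed here, so no effect of the mimic is given. Whether each library is a separate animal is not stated, and the spread between libraries may be partly technical. In whole tissue, fewer cells of a type and less RNA per cell cannot be told apart. Total counts lay between 3446463 and 5445181 per library.

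The mitochondrial genome encodes core subunits of the respiratory chain and of ATP synthase, and nuclear genes encode the remaining subunits. COX1, COX2 and COX3 form the core of cytochrome c oxidase (complex IV), which passes electrons from cytochrome c to oxygen and pumps protons across the inner membrane. ATP6 is a membrane subunit of ATP synthase (complex V), along which protons return and drive the synthesis of ATP. Neurons depend heavily on this pathway for energy. The RNAs of one strand are made as a long precursor, which in vertebrates is cut mostly at the transfer RNAs that lie between the genes, and most of the resulting mRNAs carry short poly(A) tails, which an oligo-dT primer can capture.

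In the RefSeq gene table of another chicken assembly (GRCg7b), the mitochondrial genome holds 37 genes, 13 of them protein-coding, in the order COX1, COX2, ATP8, ATP6, COX3 along this stretch. COX1 and COX2 are separated there by 2 transfer RNA genes and COX2 and ATP8 by 1. ATP8 and ATP6 have 0 genes between them, and so do ATP6 and COX3. The authors aligned reads to the last 1000 bases of each gene, per the series text, and how reads from such adjoining genes were divided is not given in the sources used here. The split between ATP6 and COX3 is therefore uncertain, as is any contribution of ATP8 to the ATP6 count or of nuclear copies of mitochondrial DNA to any of the 4.

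Levels are in CPM, the count of a gene per 1000000 counts in the same library. The counts estimate the molecules tagged with a unique molecular identifier (UMI) at their 3' end, after the saturation correction described below. A captured molecule stands for 1 count whatever its length, so levels of different genes were compared without division by length. Differences between genes in tail length or capture were not tested.

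COX3, the core subunit of complex IV without a redox centre, was the most abundant transcript in each of the 5 libraries. Library 1 held 33326 CPM of COX3, library 2 38960 CPM, library 6 42889 CPM, library 9 39069 CPM and library 10 34168 CPM. Library 6 was highest, and libraries 1 and 10 were lowest. The mean was 37683 ± 3937 CPM (SD, n = 5), with a 1.29-fold range.

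ATP6 was the next most abundant in each library. Library 1 held 28070 CPM of ATP6, library 2 28992 CPM, library 6 30454 CPM, library 9 29961 CPM and library 10 26690 CPM. Its mean was 28833 ± 1508 CPM (SD, n = 5) and its range 1.14-fold, the narrowest of the 4 genes. Library 6 was again highest, here with library 10 lowest.

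COX1, the catalytic subunit that binds and reduces oxygen, held rank 3 in each library. Library 1 held 16132 CPM of COX1, library 2 16341 CPM, library 6 15829 CPM, library 9 21345 CPM and library 10 15238 CPM. Libraries 1, 2, 6 and 10 lay close together, and library 9 stood above them. The mean was 16977 ± 2477 CPM (SD, n = 5), a 1.40-fold range. Without library 9 the mean was 15885 CPM, and the SD of log2 levels was 0.044 in place of 0.19.

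COX2, which takes electrons from cytochrome c through its copper centre, was the lowest of the 4. Library 1 held 12683 CPM of COX2, library 2 11238 CPM, library 6 7175 CPM, library 9 9671 CPM and library 10 11976 CPM. Library 6, where COX3 and ATP6 were highest, had the lowest COX2. COX2 averaged 10549 ± 2192 CPM (SD, n = 5), a 1.77-fold range, the widest of the 4 genes. Its rank in a library ran from 5 to 9, while COX3, ATP6 and COX1 kept ranks 1, 2 and 3. Without library 6 its mean was 11392 CPM and the SD of its log2 levels 0.17, against 0.33 with all 5.

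**Figure D1:**
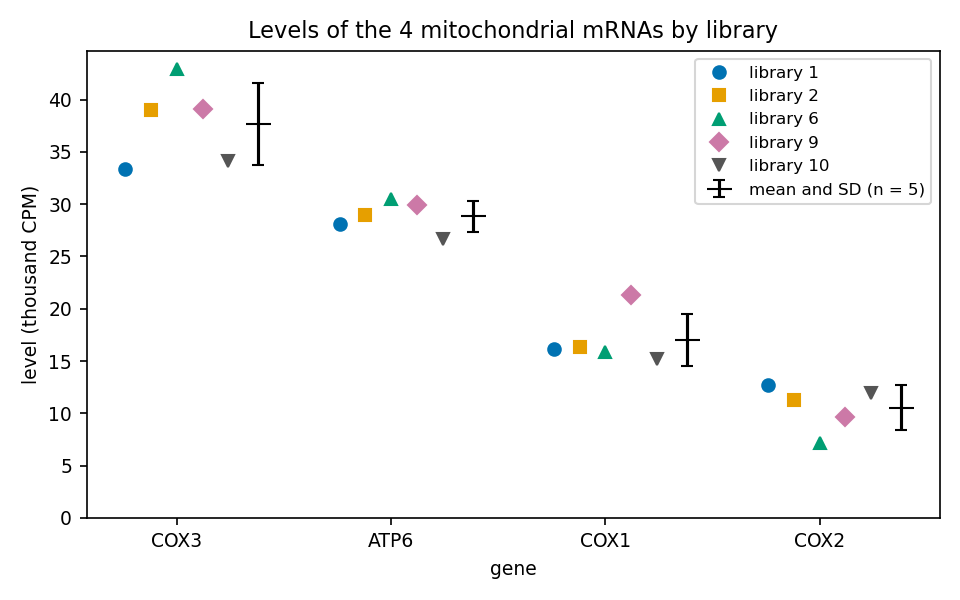
Level of each gene (vertical axis, in units of 1000 CPM) in each library (points, 5 per gene), with the mean and SD over libraries (bars, n = 5). In CPM the ranges of the 4 genes do not overlap, COX1 is set apart in library 9 at 21345 CPM, and COX2 is lowest in library 6 at 7175 CPM.

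In CPM the ranges of the 4 genes did not overlap, since the lowest COX3 level (33326 CPM) lay above the highest ATP6 level (30454 CPM). The lowest ATP6 level (26690 CPM) lay above the highest COX1 level (21345 CPM), and the lowest COX1 level (15238 CPM) above the highest COX2 level (12683 CPM). The order COX3, ATP6, COX1, COX2 thus held within each library and between any pair of them. Between libraries it did not hold on distinct UMIs, before the saturation correction described below, where neighbouring ranges overlapped. Ranks 4 and 5 by mean level were taken by genes outside the set. ENSGALG00000029500.1 averaged 12965 ± 1745 CPM and ENSGALG00000036956.1 11755 ± 1286 CPM (SD, n = 5). The lowest library of the first, at 10916 CPM, and of the second, at 9849 CPM, lay within the range of COX2, so the ranges overlapped. Within libraries the first was above COX2 in all but library 1, and the second in all but library 10. These differences were not tested.

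Counting error was small beside the spread between libraries. The deposited counts ran from 27809 for COX2 in library 6 to 186053 for COX3 in library 10. Allowing for the limited number of UMI barcodes described below, counting gave a coefficient of variation between 0.486% and 0.669% for any of the 20 values. Between libraries it was 10.4% for COX3, 5.23% for ATP6, 14.6% for COX1 and 20.8% for COX2.

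Together the 4 genes held 9.40% ± 0.484 of all counts (SD, n = 5). The share was 9.02% in library 1, 9.55% in library 2, 9.63% in library 6, 10.005% in library 9 and 8.81% in library 10. Exact Clopper-Pearson 95% intervals reached at most 0.0303 percentage points to either side; they cover counting error only and are too narrow here because the UMIs were partly used up. With that error of the 4 genes included, 95% intervals reached at most 0.0561 points, and those of 1 of the 10 pairs of libraries, 2 and 6, overlapped. The whole range of the shares was 1.14-fold. Leaving out single libraries gave means from 9.25% to 9.55%.

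In CPM the summed level varied less than COX3, COX1 and COX2 and about as much as ATP6. The SD of log2 levels over libraries was 0.075 for the sum, against 0.15 for COX3, 0.076 for ATP6, 0.19 for COX1 and 0.33 for COX2. On distinct UMIs it was 0.14 for the sum, the same as for COX1. Over the 172 genes at 1000 CPM or more the median of this SD was 0.14, with the central 90% between 0.061 and 0.32. In ascending order of SD, ATP6 took place 18 of the 172, COX3 place 96, COX1 place 126 and COX2 place 164. The place of ATP6 depended on the processing. It was 34 to 37 with TMM, DESeq2 or deposited scaling (SD 0.11), and 117 on distinct UMIs (SD 0.17, above the median of 0.13 there). Distinct UMIs compress the most abundant genes more in deeper libraries, and ATP6 had used 77.1% to 89.1% of the UMI sequences. Its SD on distinct UMIs thus mixes depth with the spread of ATP6 itself. COX2 stayed among the more variable genes, at place 161 with each of these scalings and 150 on distinct UMIs, although its SD without library 6 was 0.17.

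**Figure D2:**
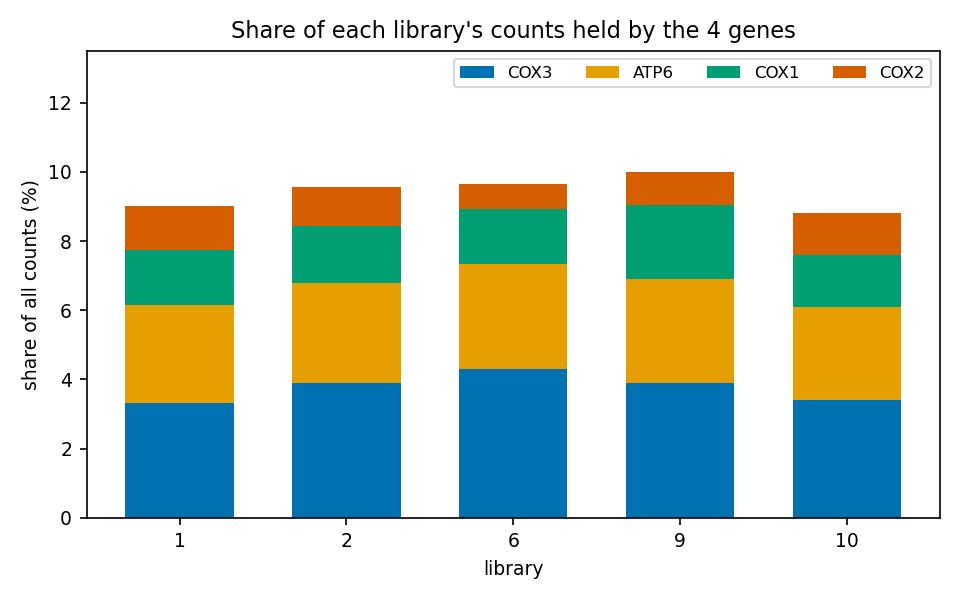
Share of all counts of a library (vertical axis, percent) held by COX3, ATP6, COX1 and COX2 (stacked bars), for the 5 libraries. Total height runs from 8.81% in library 10 to 10.005% in library 9, while the COX2 segment runs from 0.718% in library 6 to 1.27% in library 1.

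Within the counts of the set, the make-up shifted between libraries. COX3 contributed 40.0% ± 2.86 of the summed counts, ATP6 30.7% ± 0.678, COX1 18.0% ± 1.93 and COX2 11.3% ± 2.77 (SD, n = 5). COX3 reached its largest part in library 6, 44.5%, and COX2 its smallest there, 7.45%. COX2 made up 14.1% in library 1 and COX1 21.3% in library 9. ATP6 kept between 29.9% and 31.6% in all 5.

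Ratios between the genes within a library do not depend on how libraries are scaled. COX3 over ATP6 was 1.19 in library 1, 1.34 in library 2, 1.41 in library 6, 1.30 in library 9 and 1.28 in library 10. This was the steadiest ratio of the 6 pairs over all 5 libraries, with a mean log2 ratio of 0.38 ± 0.091 (SD, n = 5). The SD that counting alone gives is 0.010, so the libraries differed by more than counting error. Without library 9, ATP6 over COX1 was steadier, with an SD of the log2 ratio of 0.067 against 0.11 for COX3 over ATP6.

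Ratios over COX2, within complex IV, varied most. COX3 over COX2 was 2.63 in library 1, 3.47 in library 2, 5.98 in library 6, 4.04 in library 9 and 2.85 in library 10, a 2.27-fold range. Library 6 was highest and library 1 lowest. The mean log2 ratio was 1.86 ± 0.47 (SD, n = 5).

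The redox subunits COX1 and COX2 stood in a ratio of 1.27 in library 1, 1.45 in library 2, 2.21 in library 6, 2.21 in library 9 and 1.27 in library 10. Libraries 6 and 9 were high and libraries 1, 2 and 10 low. Library 6 combined a low COX2 with a COX1 level near that of libraries 1, 2 and 10, whereas library 9 had the highest COX1. The mean log2 ratio was 0.70 ± 0.41 (SD, n = 5).

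COX3 over COX1 ranged from 1.83 in library 9 to 2.71 in library 6, with a mean log2 ratio of 1.16 ± 0.21. ATP6 over COX1 ranged from 1.40 in library 9 to 1.92 in library 6, with a mean of 0.77 ± 0.17. Without library 9 the SD of the ATP6 over COX1 ratio was 0.067 on the log2 scale, so most of its spread came with that library. ATP6 over COX2 ranged from 2.21 in library 1 to 4.24 in library 6, with a mean of 1.48 ± 0.39 (SD, n = 5 for each ratio).

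Each ratio was formed with the gene of higher level on top, and the ranges in CPM did not overlap. All 6 ratios were therefore above 1 in 5 of 5 libraries. A two-sided exact sign-flip permutation test of the mean log2 ratio gave p = 0.0625 for each of the 6 pairs, also after Benjamini-Hochberg adjustment over the 6. This is the smallest p that 5 libraries allow, so the test could not pass 0.05. With every ratio above 1 in every library, no other p was possible, and the test adds nothing to the levels.

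**Figure D3:**
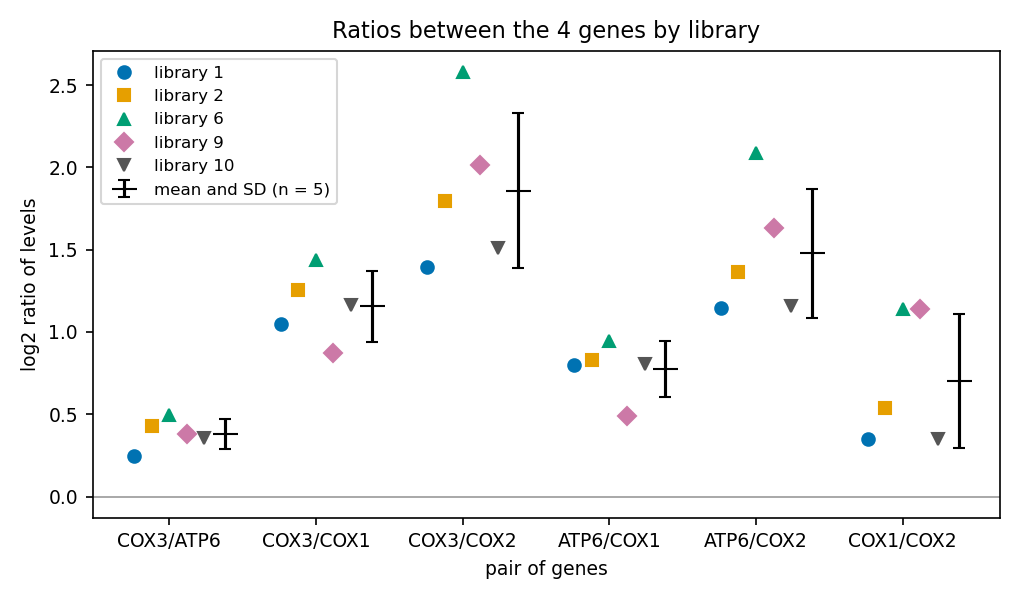
Log2 ratio of the levels of each pair of genes (vertical axis) in each library (points), with the mean and SD (bars, n = 5); the grey line at 0 marks equal levels. All points lie above 0, COX3/ATP6 is the tightest, and the 3 ratios over COX2 are spread most, with library 6 at or near the top of each.

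The spread of these ratios was set beside that of all 14706 pairs of the 172 genes at 1000 CPM or more, where the median SD of the log2 ratio was 0.21. Pairs share genes and libraries, so this is a description without a test. The ratio of COX3 to ATP6 was steadier than that of most such pairs, since 6.19% of pairs had an SD as small as theirs. With single libraries left out this was 3.5% to 14.6%. A steady gene also lowers this SD, and the SD of the log2 levels of ATP6 alone was 0.076. The small SD is therefore not by itself a sign that the 2 genes varied together. Other genes had a steadier ratio to COX3, and others to ATP6. By the same SD, ATP6 was at place 15 of 171 genes for COX3, and COX3 at place 26 of 171 for ATP6. ATP6 over COX1 lay at 33.1% and COX3 over COX1 at 51.2% of pairs, near the middle. The ratios over COX2 lay at 89.9% with ATP6, 91.2% with COX1 and 94.4% with COX3. Library 6 carried much of this. Without it the SD over COX2 was 0.23 with ATP6, 0.38 with COX1 and 0.28 with COX3, at 56.1%, 86.6% and 70.3% of pairs, with the median of all pairs at 0.21. On distinct UMIs the ratios over COX2 lay at 77.4% with ATP6, 74.2% with COX1 and 81.5% with COX3. COX3 over ATP6 lay at 0.054% there, on a scale that compresses these most abundant genes.

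**Figure D4:**
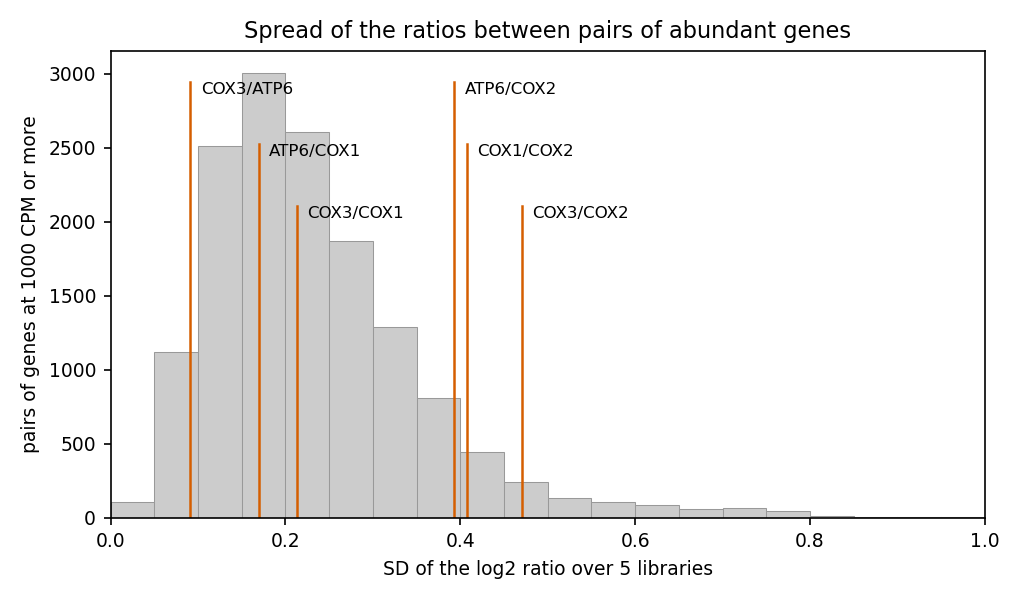
Number of pairs of genes at 1000 CPM or more (vertical axis) by the SD of their log2 ratio over 5 libraries (horizontal axis, up to 1); vertical lines mark the 6 pairs of the set at 0.091 to 0.47. COX3/ATP6 lies at the low end and the 3 pairs with COX2 in the upper tail; the 169 pairs above 1 are not drawn.

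By the same measure, the gene of at least 1000 CPM outside the set whose level was most like the summed level of the 4 was ENSGALG00000002286.5. Library 1 held 1034 CPM of it, library 2 1111 CPM, library 6 1165 CPM, library 9 1181 CPM and library 10 1075 CPM, with an SD of the log2 ratio to the sum of 0.038. The next was ENSGALG00000032052.2, with 1756 ± 89.8 CPM (SD, n = 5) and an SD of 0.053. Both had steady levels, as had the sum. With single libraries left out, the first took places 3 to 6 and the second places 1 to 15 of 168, so their places rest on small differences. With distinct UMIs in place of the deposited counts, described next, the first was at place 79 and the second at place 17 of 178.

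The 4 genes are so abundant that their counts depend on the authors' correction for UMI saturation. When molecules of a gene are many beside the available UMI sequences, some receive the same UMI as another molecule and are merged. This happens even where the sequences outnumber the molecules, and more often as more sequences are used. The correction estimates the molecules from the distinct UMIs seen. The number of UMI sequences is not given in the sources used here, but it left a trace in the deposited values. A correction with 65536 sequences, those of an 8-base UMI, rounded down, can give only certain whole numbers. All 57380 deposited values, the 20 of the 4 genes included, were exactly such numbers. Low counts tell little here, since 99.2% of whole numbers from 100 to 1000 and 92.0% from 1000 to 10000 are such numbers. At the levels of these 20 values only 28.0% of whole numbers are. With UMIs of 7 bases, rounded down, 28.6% of the 213 values from 10000 to 200000 matched, with 9 bases 90.6% and with 10 bases 99.5%. Of all whole numbers in that range, 4.68% match with 7 bases, 68.5% with 9 and 90.6% with 10. These shares are too low a yardstick, since 169 of the 213 values lay from 10000 to 30000, where more whole numbers match. From 10000 to 30000, 34.3% of values matched with 7 bases, 92.9% with 9 and 100% with 10. The shares of whole numbers there were close to these, at 31.4%, 92.7% and 98.1%. With 8 bases all 169 matched, against 74.0% of whole numbers. UMIs of 11 or 12 bases matched all 213 too, but with those nearly all whole numbers from 10000 to 200000 match (97.5% and 99.4%).

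On that reading, the distinct UMIs behind each count can be recovered. COX3 had used 54177 of the 65536 sequences in library 1, or 82.7%, and 89.3% in library 2, 92.1% in library 6, 93.3% in library 9 and 94.2% in library 10. ATP6 had used between 77.1% and 89.1%, COX1 between 57.2% and 77.2% and COX2 between 34.6% and 63.03%. Outside the set the highest value for any gene in any library was 66.5%.

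The correction therefore raised the 4 genes by unequal factors. In library 10, 61703 distinct UMIs of COX3 became a count of 186053, a factor of 3.02, and each further distinct UMI was worth 17.1 counts. In library 6, 22662 distinct UMIs of COX2 became 27809, a factor of 1.23. The totals of the libraries were raised far less, since distinct UMIs were 90.2% to 92.6% of their counts.

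**Figure D5:**
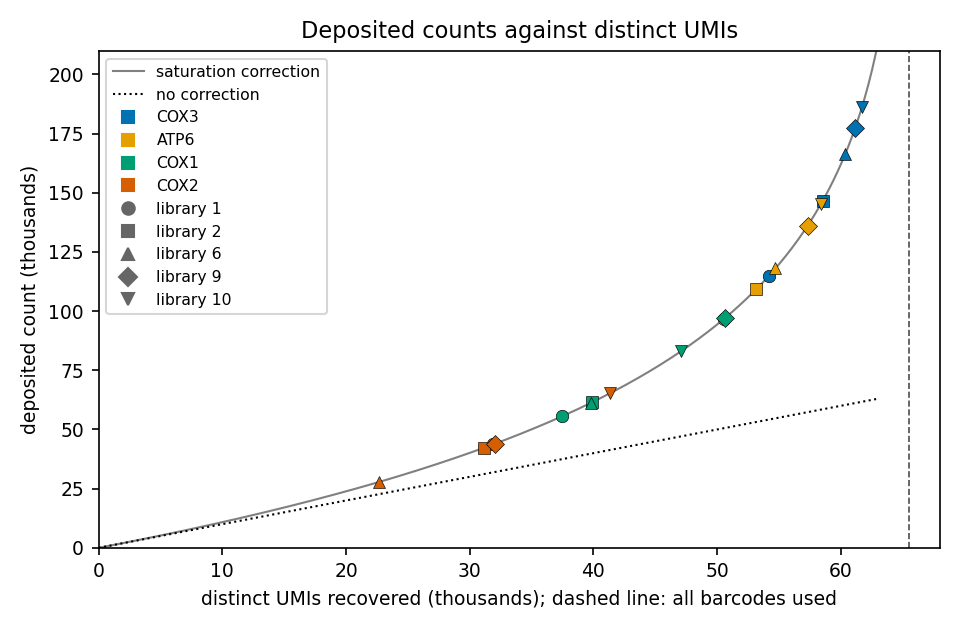
Deposited count (vertical axis, in units of 1000) against the distinct UMIs recovered from it (horizontal axis, in units of 1000) for the 4 genes (colours) in 5 libraries (symbols), with the curve of the correction, the line of no correction (dotted) and the 65536 available sequences (dashed). COX3 lies on the steep part, up to 61703 UMIs and 186053 counts. COX2 lies lower on the curve, with counts 1.23 to 1.58 times the distinct UMIs.

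Counted as distinct UMIs per 1000000 distinct UMIs of the library, termed the UMI level here, the order of the 4 genes within each library was unchanged, as the correction keeps order, but the distances shrank. The mean UMI level was 15695 ± 1982 for COX3, 14514 ± 1641 for ATP6, 11297 ± 1047 for COX1 and 8329 ± 1345 for COX2 (SD, n = 5). Ranges that were separate in CPM overlapped here, since the lowest COX3 level (12538) lay below the highest ATP6 level (15848), the lowest ATP6 level (11867) below the highest COX1 level (12348) and the lowest COX1 level (9562) below the highest COX2 level (9999). The mean log2 ratio of COX3 over ATP6 was then 0.11 in place of 0.38, and that of COX3 over COX2 0.92 in place of 1.86. The 4 genes together held 4.98% ± 0.471 of distinct UMIs, against 9.40% of corrected counts.

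The order of the libraries changed for each of the 4 genes, while some highest and lowest libraries stayed. By UMI level, ATP6 was highest in library 1 (15848) rather than library 6 (15476), and COX3 was nearly level in libraries 1, 2 and 6, at 16982, 16961 and 17070. COX2 was still highest in library 1 (9999) and lowest in library 6 (6410), and COX1 still highest in library 9 (12348). The share of the set in distinct UMIs was 5.46% in library 1, 5.29% in library 2, 5.02% in library 6, 4.91% in library 9 and 4.24% in library 10, lower in each deeper library. The share in corrected counts rose with depth from 9.02% in library 1 through libraries 2 and 6 to 10.005% in library 9. It was lowest in library 10, the deepest, at 8.81%. A relation to depth was not tested. The correction takes all UMI sequences to be equally frequent, and whether they were was not tested.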

How the data were processed

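Messenger RNA was profiled by bulk MARS-seq, a 3'-end method with UMIs, in 5 libraries of 1 group. Per the series text and the submitters' processing notes, the steps were trimming (cutadapt), alignment with STAR to the gene ends of galGal5, counting (HTSeq), merging of reads that share a gene and a UMI, and a correction for UMI saturation. DESeq2 is also named, with versions not given in the sources used here. The authors deposited, per the file headers, raw counts (whole numbers) and normalised counts, a signal made by dividing by 1 size factor per library.

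CPM, shares, ratios and SDs were computed in Python 3.11.15 with numpy 2.4.6 and scipy 1.17.1. TMM factors came from edgeR 4.0.16 and median-of-ratios factors from DESeq2 1.42.0, in R 4.3.3. Distinct UMIs were recovered by inverting the correction for 65536 sequences. The spread and saturation steps were tested on simulated data. The smallest total was 3446463 counts. A gene with no count could lie at up to 3 counts, at most 0.87 CPM.

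Named genes were the 4 members, the 2 other genes of at least 1000 CPM closest to their summed level and the 2 other genes of highest mean level. Of 89 listed symbols (the 4 members and other mitochondrial, respiratory, neural and blood genes) none could be tied to an ID by a reference table, so no other listed gene was used. The members and lists were chosen with earlier results of these data known. Rows naming no gene held 0% of counts.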

Additional observations from a re-analysis of the deposited data

Results flagged for a closer look

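Of 15 measures of the 4 genes (levels, summed share, ratios and parts of the set), 1 had a library far from the other 4 by Dixon's gap test, with a limit of 0.71 of the range for 5 values. COX1 stood at 21345 CPM in library 9, and the gap to the next library took up 0.819 of its range. The mark holds for CPM and depends on scaling. In deposited normalised counts COX1 was 89887 in library 9, 70454 in library 2, the next highest, and 62219 in library 10, the lowest. That gap lies just under the limit. Chance marks about 5% of groups of independent values. The 15 measures share the same 4 genes and are not independent, and the test was not run on other genes. The mark on 1 of 15 is therefore a description only. The UMI level of COX1 was 12348 in library 9 and 11748 in library 1, the next highest, a gap of 0.215 of the range. Distinct UMIs cannot exceed the number of sequences, so this scale compresses high values. COX1 had used 77.2% of the sequences in library 9 and 57.2% in library 1. The largest gap on this scale, 0.612, was that of library 10, the lowest. The UMI level therefore cannot show whether library 9 stood apart in molecules. The part of library 9 in the COX1 results was examined only by leaving it out.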

How the results depend on the processing

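No value reversed under any alternative, but shares, levels and SDs cannot be negative and so could not reverse. The 6 ratios were each above 1 in 5 of 5 libraries. Leaving out a library, the median, scaling or distinct UMIs, which keep the order of genes, could not reverse these either. The lack of reversals is therefore not evidence of stability. Of 95 comparisons with planned settings that kept all libraries (scaling, totals, thinning, pseudocount, median), 89 moved by less than the SD between libraries, or by less than 1.5-fold for an SD. Some of these 89 could not move. Ratios within a library do not depend on scaling, and the pseudocount of 0.5 CPM is very small beside the levels of the 4 genes. The 6 others have a smaller total by construction. Without the 4 genes in the total the share was 10.4% and ATP6 31833 CPM. Without the 10 highest genes the share was 11.05%, COX3 44276 CPM, ATP6 33871 CPM and COX1 19951 CPM.

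Distinct UMIs, the wider share intervals and the places among abundant genes under other settings were chosen after seeing the data. Distinct UMIs moved 16 of 23 results, by construction most for genes near saturation. The share was 4.98%, and mean UMI levels were 15695 for COX3, 14514 for ATP6, 11297 for COX1 and 8329 for COX2. Log2 ratios were 0.11 for COX3/ATP6, 0.47 for COX3/COX1, 0.92 for COX3/COX2, 0.36 for ATP6/COX1 and 0.81 for ATP6/COX2. The SD of log2 levels of ATP6 was 0.17 in place of 0.076. SDs of log2 ratios were 0.028 for COX3/ATP6, 0.13 for COX3/COX1 and 0.31 for COX3/COX2, and to the summed level 0.17 for ENSGALG00000002286.5 and 0.11 for ENSGALG00000032052.2.

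Leaving out single libraries gave an SD of log2 levels of 0.044 to 0.22 for COX1, lowest without library 9, and 0.17 to 0.37 for COX2, lowest without library 6. SDs of log2 ratios ran from 0.060 (without library 1) to 0.11 for COX3/ATP6 and from 0.067 (without library 9) to 0.19 for ATP6/COX1. They ran from 0.28 to 0.54 for COX3/COX2 and from 0.23 to 0.45 for ATP6/COX2, both lowest without library 6. For ENSGALG00000032052.2 the SD to the summed level ran from 0.016, without library 1, to 0.061. Levels per coding length were not run, since no protein table was used. No paired comparison of conditions was possible because the 5 libraries form 1 group. Depth did not limit the 4 genes; the number of UMI sequences did, most for COX3.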
